A study of Rattus norvegicus with 12 samples.

Results

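Collagen and laminin chain genes were described in 3 tissues of young male Wistar rats that had received acrylamide or saline. They were chosen by name: every probe set of the array whose single gene symbol was that of a numbered collagen alpha chain, or of a laminin alpha, beta or gamma chain. The rule found 51 genes, 41 of collagens and 10 of laminins, on 72 probe sets, out of 14217 genes with 1 symbol. Of these genes, 34 had 1 probe set, 13 had 2 and 4 had 3, and a gene is given by the probe set with its highest mean.

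Messenger RNA of the cerebellum, the spinal cord and the sciatic nerves was measured on Affymetrix rat arrays, 1 colour each. Acrylamide, an electrophilic monomer known to damage long axons, was given by oral gavage at 30 mg/kg per day, and the control rats received saline, called solvent in another label. The rats were 25 days old at the start in the sample labels and 3 weeks old in the series text. The labels state dosing for 21 days in one place and collection 21 days after treatment in another. Each tissue had a saline and an acrylamide group of 2 arrays, 12 arrays in 6 groups, and each array carried tissue pooled from 2 rats. A p-value here measures the spread between such pools, taken as 1 spread per probe set over all 6 groups. It is not the spread of 1 tissue alone, so the acrylamide differences of a gene have the same standard error in each tissue. The labels do not state if 1 rat gave all 3 tissues.

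Collagens are triple helices built from alpha chains. Fibrillar collagens form the cables of connective tissue, type IV collagen forms the sheet of basement membranes, and fibril-associated collagens sit on the surface of fibrils. Laminins are trimers of 1 alpha, 1 beta and 1 gamma chain that start basement membrane assembly. In peripheral nerve each Schwann cell with its axon is wrapped in a basement membrane rich in laminin, surrounded by collagen fibrils of the endoneurium, whereas in brain and cord such matrix lies mainly along vessels and in the meninges.

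Signals are in arbitrary units on a linear scale and compare 1 gene between arrays, not different genes. Array medians lay between 162 and 199. Differences are in log2(signal + 16) with the standard error from limma. Summed markers of spinal cord neurons were 56141 to 59796 on the cord arrays and at most 12189 elsewhere. Summed Schwann cell markers were 123991 to 154059 on the nerve arrays, 57756 to 69563 on the cord arrays and 17508 to 18777 on the cerebellum arrays. Markers of other tissues differed between arrays of 1 tissue, and their source was not tested. Summed cerebellar neuron markers were 12655 and 16152 on the replicate 1 nerve arrays (saline and acrylamide) and 2222 and 2110 on the replicate 2 nerve arrays. In the same order, astrocyte sums were 11473 and 14043 against 6173 and 9515, and choroid plexus sums 4371 and 4557 against 1236 and 1559. Summed skeletal muscle markers were 57795 on cord saline 1 and between 7198 and 8484 on the other cord arrays, and ranged from 4027 to 29146 in the nerve. Summed fat cell markers were 48213 on nerve saline 1 and between 10552 and 17992 on the other nerve arrays.

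The start regions of some of these genes are shown here because the laminin chains and the type IV chains that occur together in a basement membrane are described together below. RefSeq (assembly GRCr8) gave a window from 250 bases before to 50 bases after the start for 41 of the 51 genes. The genes of the type IV pair, Col4a1 and Col4a2, lie head to head on opposite strands, with 76 bases between their starts at chr16:84885521-84885596. The other 3 sequences are the 120 bases before the start of Lama2 (chr1:19492026-19492145, plus strand), Lamb1 (chr6:53562976-53563095, plus strand) and Lamc1 (chr13:68051987-68052106, minus strand), each on the strand of its gene. All are written 5′ to 3′, the type IV gap on the plus strand, and capitals mark GGGCGG or its complement CCGCCC, the short GC box.
Col4a1 and Col4a2: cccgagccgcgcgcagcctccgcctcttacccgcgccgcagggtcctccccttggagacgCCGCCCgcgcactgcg
Lama2: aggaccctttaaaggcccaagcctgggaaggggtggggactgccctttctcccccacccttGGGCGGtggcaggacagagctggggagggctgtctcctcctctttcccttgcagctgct
Lamb1: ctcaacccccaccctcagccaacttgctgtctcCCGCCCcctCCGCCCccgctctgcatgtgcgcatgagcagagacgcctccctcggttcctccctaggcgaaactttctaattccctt
Lamc1: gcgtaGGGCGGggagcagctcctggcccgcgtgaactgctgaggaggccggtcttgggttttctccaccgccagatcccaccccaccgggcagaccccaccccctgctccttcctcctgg
Each of these 4 stretches held at least 1 GC box. Of the 41 windows, 23 (56.1%) held GGGCGG on either strand in the 250 bases before the start, against 30.5% of all 33469 RefSeq windows of the same length. CCAAT on either strand was in 11 of 41 (26.8%), against 34.0% of all, and TATAAA on the strand of the gene in 5 of 41 (12.2%), against 8.06%. Matches of different words can share end letters, and a match is a run of letters, not a site shown to be used.

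In saline rats the tissues differed in most of these genes, mostly with the nerve highest. Counting saline and acrylamide arrays alike, all 4 nerve arrays lay above all 8 other arrays for 37 of the 51 genes. The 37 include Col17a1 and Col22a1, whose mean signal was under 110 in every group. For 27 genes the 4 cord arrays also lay wholly between those of the cerebellum and the nerve. The share of all probe sets with either order was not computed. A gene was called between tissues at a Benjamini-Hochberg adjusted p under 0.05 in limma with at least a 2-fold difference, over all 31042 probe sets without a filter. Between nerve and cerebellum, 34 of 51 were higher in the nerve (13.2% of all probe sets) and 4 lower (16.4% of all), with a median log2 difference of 3.04 against -0.14 over all probe sets. Between nerve and cord, 33 were higher in the nerve (7.66% of all) and 4 lower (11.9%), with medians of 1.77 and -0.01. Between cord and cerebellum, 26 were higher in the cord (9.14% of all) and 1 lower (7.15%), with medians of 1.22 and -0.06. Leaving out both replicate 1 nerve arrays gave 39, 37 and 28 calls in these comparisons, against 38, 37 and 27.

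**Figure D1:**
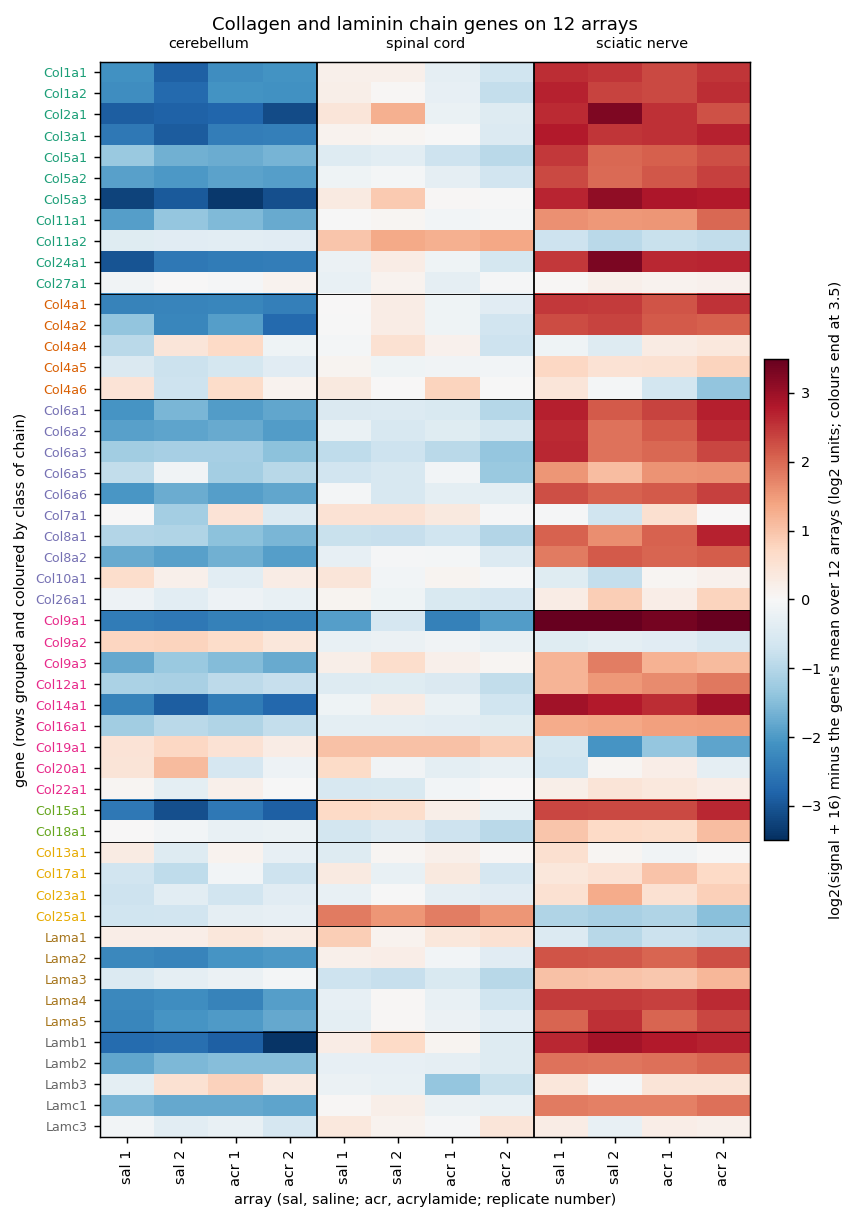
Signal of the 51 genes on the 12 arrays, as log2(signal + 16) minus the mean of each gene over the arrays; red is above and blue below that mean, columns are arrays by tissue and rows are genes coloured by class of chain. The nerve columns are red for most genes, and for 37 of 51 all 4 nerve arrays, saline and acrylamide, lie above the other 8. The share of all probe sets with this order was not computed.

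Fibrillar collagens had the highest median difference of the classes between nerve and cerebellum (log2 4.97) and between cord and cerebellum (2.57). Between nerve and cord their median was 2.27, beside 2.32 for the beaded and network class. Col3a1, the chain of the thin reticular fibrils, had saline signals of 708 and 535 in the cerebellum, 4500 and 4316 in the cord, and 28183 and 23195 in the nerve. It was 7.01-fold higher in cord than cerebellum and 5.78-fold higher in nerve than cord. No 2 tissues overlapped in its signal. Col1a1 and Col1a2, which together make type I collagen, the main fibril of tendon, bone and nerve sheath, were 32.9-fold and 31.4-fold higher in nerve than in cerebellum (limma adjusted p = 1.33e-07 and 1.61e-07).

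The minor fibrillar chains followed. Col5a3, a chain of type V collagen that Schwann cells are known to make, had saline signals of 74.1 and 95.1 in the cerebellum, 1048 and 1607 in the cord, and 5437 and 7332 in the nerve. Where the dimmer tissue lay under a signal of 110, the limit used as a filter, that signal stands in for it and the fold is a lower bound. Col5a3 was thus at least 50.2-fold higher in nerve than cerebellum (log2 difference 5.98 ± 0.21, limma adjusted p = 6.42e-08) and at least 10.4-fold higher in cord than cerebellum. Col2a1, known as the main fibril chain of cartilage, had 56.7 and 58.8 in the cerebellum, 693 and 1254 in the cord, and 3219 and 5078 in the nerve. It was at least 7.53-fold and at least 32.2-fold above the cerebellum in cord and nerve. Beside it, of the cartilage markers, Cnmd, the chondromodulin gene, was at 9140 and 11911 in saline nerve, Comp was above the filter at 142 and 173, and Acan, Matn1, Chad and Hapln1 were at 5.89 to 82.9, all under it. Whether cartilage cells play a part in the Col2a1 signal was not tested beyond these values.

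Col24a1, a fibrillar chain described in bone and developing nervous tissue, had saline signals of 19.6 and 35.1 in the cerebellum, 235 and 332 in the cord, and 1595 and 2806 in the nerve, 7.22-fold higher in nerve than cord. Col5a1 was 6.30-fold higher in nerve than cord with 527 and 556 in the cord and 4090 and 2985 in the nerve. Col11a2 went the other way, at 288 and 372 in the cord and 77.4 and 65.0 in the nerve, at least 2.73-fold higher in the cord (log2 difference -1.98 ± 0.18, limma adjusted p = 3.07e-05). Of the 11 fibrillar genes, 10 were called higher in cord than cerebellum and 9 higher in nerve than cord. Col27a1 was called in no comparison, with saline signals between 142 and 199 on all 6 arrays.

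The basement membrane chains showed the same order. Col4a1, which together with Col4a2 makes the common type IV trimer, had saline signals of 331 and 338, 1778 and 2082, and 9808 and 9661 in cerebellum, cord and nerve. Its steps of 5.54-fold and 5.03-fold had limma adjusted p = 2.19e-06 and 3.33e-06. Col4a2, which starts 76 bases from Col4a1 on the other strand, had 423 and 217, 1097 and 1353, and 5455 and 5834. Both genes were thus higher in nerve than cerebellum, Col4a1 27.8-fold and Col4a2 17.7-fold. Col4a5 was 2.38-fold higher in nerve than cerebellum, and Col4a4 and Col4a6 were under the filter in every group.

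Among the laminins, Lama2, whose chain is that of the laminin of muscle and Schwann cell basement membranes, had 231 and 222 in the cerebellum, 1323 and 1379 in the cord, and 5427 and 5348 in the nerve. Its 2 partners in that trimer were Lamb1, with 148 and 153, 1259 and 1710, and 6511 and 7930, and Lamc1, with 614 and 546, 1983 and 2232, and 6839 and 6530. Nerve exceeded cerebellum 22.3-fold for Lama2, 43.3-fold for Lamb1 and 11.3-fold for Lamc1 (limma adjusted p = 1.49e-08, 1.57e-07 and 1.75e-08), so each chain of the trimer was highest in the nerve. Lama4, of vessels and Schwann cells, was 25.3-fold higher and Lamb2, of synaptic and perineurial membranes, 11.9-fold higher in nerve than cerebellum. Lama1, a chain of the meningeal membrane, was the exception: it had 145 and 146 in the cerebellum, 232 and 132 in the cord, and 81.8 and 54.5 in the nerve, at least 1.52-fold higher in the cord (log2 difference -1.21 ± 0.26, limma adjusted p = 0.00483). Lamb3 stayed under the filter in every group, and Lamc3 was called in no comparison.

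Type VI collagen, a beaded filament network around cells, was highest in the nerve. Col6a3 had saline signals of 369 and 377 in the cerebellum, 464 and 524 in the cord, and 5490 and 3327 in the nerve. It was 8.43-fold higher in nerve than cord (limma adjusted p = 1.07e-05) and was not called between cord and cerebellum (log2 difference 0.39 ± 0.23). Col6a1, with 676 and 687 in the cord and 6493 and 4355 in the nerve, was 7.65-fold higher in the nerve, and Col6a2 6.30-fold. Unlike Col6a3, both were also called higher in cord than cerebellum, Col6a1 2.53-fold and Col6a2 2.79-fold (limma adjusted p = 0.00158 and 0.00102). So was Col6a6, at 23.6 and 33.1 in the cerebellum and 140 and 95.5 in the cord, close to the filter. Col8a2, of the short-chain type VIII network, had 362 and 333, 1043 and 1235, and 4574 and 5707.

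The fibril-associated genes were the most divided. Col9a1 had saline signals of 2.74 and 2.04 in the cerebellum, 10.9 and 52.1 in the cord and 2028 and 1189 in the nerve, at least 12.5-fold higher in the nerve than in either. Col14a1, a chain found on the surface of mature fibrils, had 114 and 73.5, 579 and 782, and 5063 and 4448, at least 37.8-fold higher in nerve than cerebellum. Col9a3 had 295 and 418, 1211 and 1626, and 2443 and 3706. The 3 type IX chains did not move together: Col9a2 was 679 and 696 in the cerebellum, 328 and 343 in the cord and 293 and 311 in the nerve. It was the single gene called lower in cord than cerebellum, 2.00-fold (limma adjusted p = 0.000242). Col19a1, a chain reported in neurons, had 110 and 133 in the cerebellum, 168 and 165 in the cord, and 42.7 and 5.34 in the nerve, at least 1.45-fold lower in nerve than cord. Col12a1 and Col16a1 were higher in nerve than cord, 3.46-fold and 3.17-fold.

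Col15a1, a multiplexin of basement membranes that is known from peripheral nerve, had 169 and 109, 1695 and 1584, and 5307 and 5163, 10.9-fold higher in cord than cerebellum and 34.6-fold higher in nerve. Its relative Col18a1 had 640 and 592 in the cerebellum, 397 and 451 in the cord, and 1238 and 1030 in the nerve, so that the cord was lowest. Col23a1, a transmembrane collagen, had 161 and 210, 230 and 273, and 406 and 706, 2.76-fold higher in nerve than cerebellum. Col25a1, a transmembrane collagen of neurons, was highest in the cord, with 58.8 and 60.2, 408 and 337, and 42.0 and 39.1, at least 3.07-fold above the nerve (log2 difference -2.78 ± 0.21, limma adjusted p = 1.11e-05). Calls in dim genes carry no level: Col17a1, called higher, and Col10a1 and Col20a1, called lower in nerve than cerebellum, were under the filter in both tissues. In all, 9 of the 51 genes were under the filter in every group: Col7a1, Col10a1, Col13a1, Col17a1, Col20a1, Col22a1, Col4a4, Col4a6 and Lamb3.

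**Figure D2:**
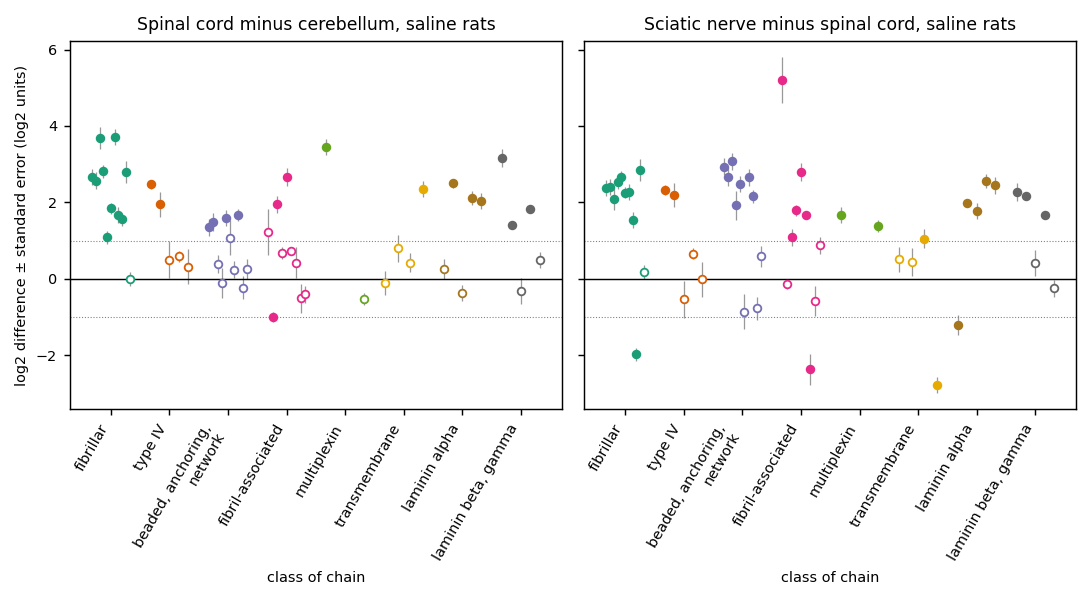
Difference between tissues in saline rats for the 51 genes, by class of chain (log2 units ± standard error from limma); filled points were called at an adjusted p under 0.05 with at least a 2-fold difference, dotted lines mark that fold. Points lie mostly above 0, with medians of 1.22 on the left and 1.77 on the right, and the 4 genes called lower on the right are Col25a1, Col19a1, Col11a2 and Lama1.

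Acrylamide was then compared with saline within each tissue. These tests kept probe sets with a mean above the 110 filter in that tissue, which left 29 of the 51 genes in the cerebellum, 38 in the spinal cord and 38 in the nerve. None of them passed an adjusted p of 0.05 in any tissue, where limma called 0%, 0% and 0.00553% of all probe sets. In the spinal cord 36 of 38 had the lower mean in acrylamide rats, against 48.6% of all probe sets, with a median log2 difference of -0.28 against 0.00 over all 18967 tested. In the nerve 18 of 38 and in the cerebellum 13 of 29 were lower (49.8% and 50.1% of all), with medians of 0.03 and 0.02. At an unadjusted p under 0.05, the counts were 12 lower and 0 higher in the cord (1.85% and 1.02% of all probe sets), 0 lower and 2 higher in the nerve (2.37% and 2.73%), and 0 in either direction in the cerebellum (1.43% and 1.28%).

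The cord is described first. Lama2 had signals of 1323 and 1379 on the saline arrays and 1084 and 888 on the acrylamide arrays, a log2 difference of -0.46 ± 0.11. Lamc1 had 1983 and 2232 against 1676 and 1592, with -0.36 ± 0.09, and Lamb1 had 1259 and 1710 against 1119 and 750, with -0.67 ± 0.24. For each of these 3 chains both acrylamide arrays lay below both saline arrays, and after adjustment each had a limma Benjamini-Hochberg p of 1. The same separation held for Col4a1, with 1778 and 2082 against 1564 and 1324 (log2 difference -0.41 ± 0.13), and for Col4a2, with 1097 and 1353 against 1002 and 695 (-0.54 ± 0.32).

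Col2a1 had the widest difference of these genes, with 693 and 1254 on the saline and 434 and 376 on the acrylamide cord arrays (log2 difference -1.18 ± 0.29). Its saline arrays differed from each other by more than the lower of them from the acrylamide arrays. The dimmer probe sets of Col2a1 were under the filter in the cord and were not tested there. Of these, 1 went the other way, with 82.1 and 77.9 on saline and 96.2 and 86.6 on acrylamide arrays. The other had 74.6 and 96.8 on saline and 67.1 and 68.9 on acrylamide arrays. Col1a1 had 4484 and 4415 against 3166 and 2443, and Col1a2 had 4400 and 3961 against 3113 and 2130, log2 differences of -0.67 ± 0.21 and -0.69 ± 0.22. For both genes of the type I pair acrylamide 2 was the lowest of the 4 arrays. Col15a1 had 1695 and 1584 against 1191 and 881, a log2 difference of -0.67 ± 0.22, again without overlap. The other 4 at an unadjusted p under 0.05 were the type V chains Col5a3 (-0.61 ± 0.22), Col5a1 (-0.42 ± 0.18) and Col5a2 (-0.39 ± 0.14) and the fibril-associated Col14a1 (-0.54 ± 0.24). Col3a1, with 4500 and 4316 against 4047 and 2916, missed that limit (-0.36 ± 0.17).

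By class, the median cord difference was -0.41 for the fibrillar genes (10 of 11 lower), -0.41 for type IV (3 of 3), -0.47 for the multiplexins (2 of 2), -0.25 for laminin alpha (4 of 4) and -0.23 for laminin beta and gamma chains (4 of 4). It was -0.17 for the fibril-associated (5 of 6), -0.11 for the transmembrane (2 of 2) and -0.10 for the beaded and network collagens (6 of 6). The 2 genes with a higher mean in acrylamide cord were Col11a2 and Col9a2, at 0.15 and 0.04. Groups did not overlap for 23 of 38 genes, all of them lower, against 15.8% of all probe sets lower, 17.7% higher and 33.6% in either direction. Among 10 further probe sets of these genes tested in the cord, 9 had the same sign as the one used, and the exception was that of Col18a1.

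The 2 acrylamide cord arrays did not count equally. Against the mean of the saline arrays, the median difference was -0.16 on acrylamide 1 and -0.39 on acrylamide 2, and acrylamide 2 was the lower of them for 31 of 38 genes. Acrylamide 1 lay below both saline arrays for 25 of 38 genes and acrylamide 2 for 31. Without acrylamide 2, 32 of 38 were lower, with a median of -0.16, and without saline 2, 33 of 38, with a median of -0.26. Without saline 1, the array with the muscle markers, 31 of 37 were lower, with a median of -0.33. For the 12 genes at an unadjusted p under 0.05 in limma both acrylamide arrays lay below both saline arrays. Leaving out any single cord array thus could not change their sign. The size of the difference did vary, for Lama2 between -0.60 and -0.31 and for Col2a1 between -1.60 and -0.76.

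**Figure D3:**
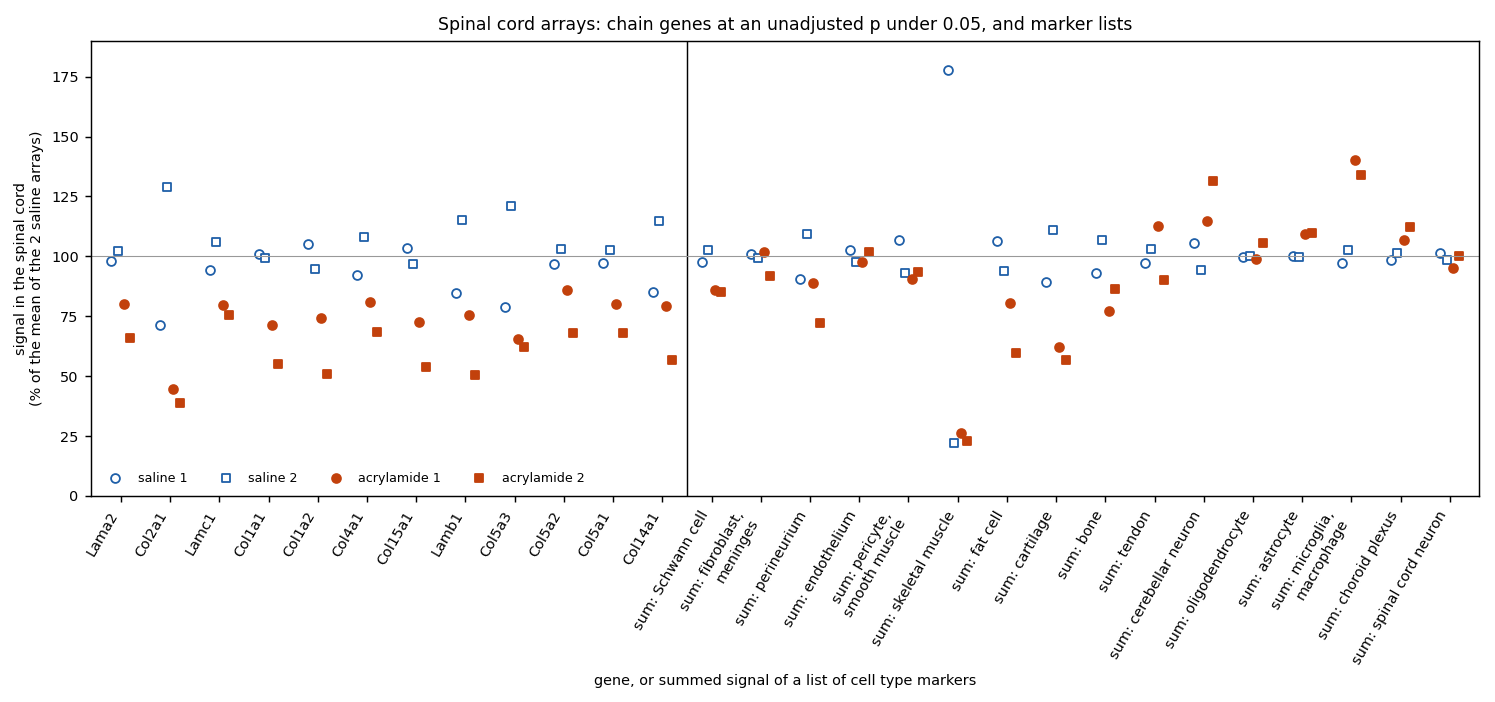
Signal on the 4 spinal cord arrays, as a percentage of the mean of the 2 saline arrays, for the 12 chain genes at an unadjusted p under 0.05 in limma and for the summed signal of 16 lists of cell type markers; open symbols are saline and filled symbols acrylamide arrays, 1 point per array. Both filled symbols lie below both open ones for all 12 genes and for 5 sums (Schwann cell, perineurium, fat cell, cartilage and bone). Both lie above for 4 sums, and 7 sums overlap. Of all single probe sets tested in the cord, 33.6% did not overlap in either direction.

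**Figure D4:**
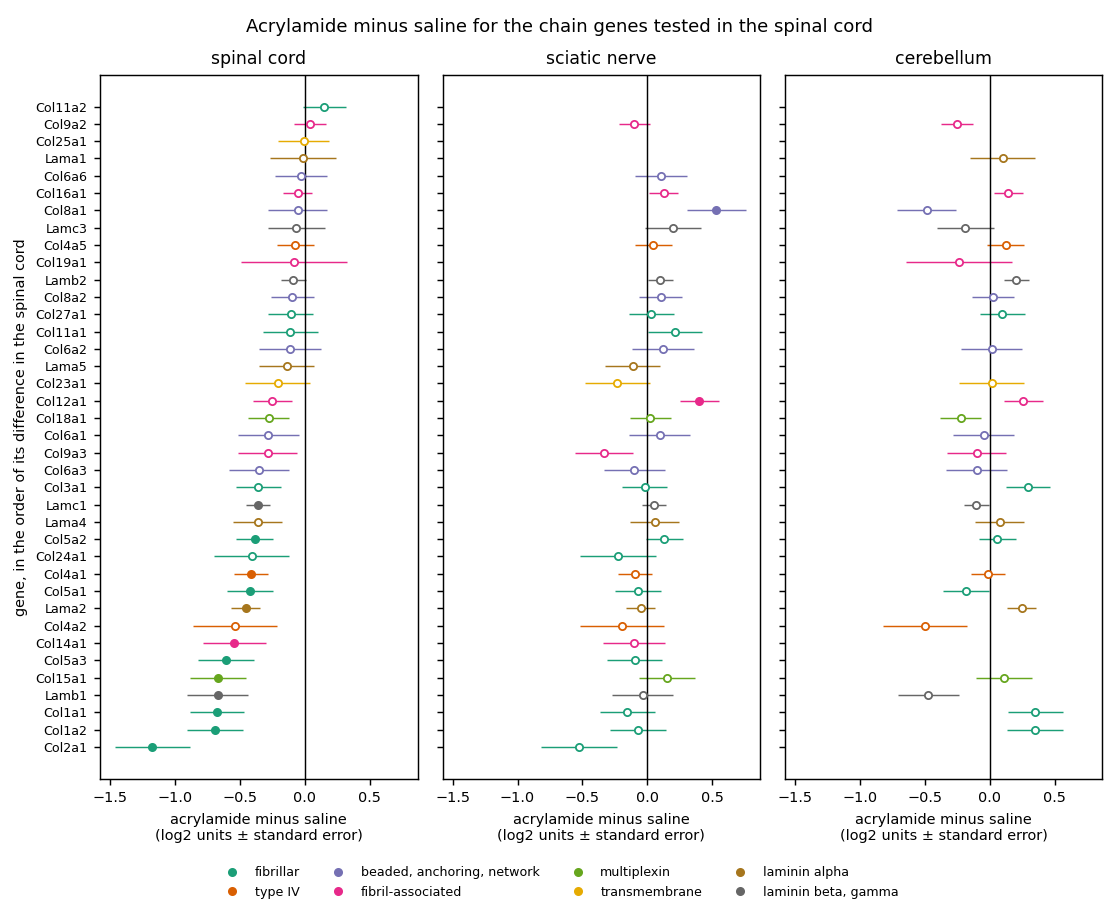
Acrylamide minus saline in the cord, nerve and cerebellum (log2 units ± standard error from limma) for the 38 chain genes tested in the cord, coloured by class; filled points have an unadjusted p under 0.05, and a missing point was under the filter in that tissue. In the cord 36 of 38 points lie left of 0, in the nerve and cerebellum they lie on both sides.

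Marker genes of other cell types differed along with the chain genes in the cord. In whole tissue, fewer cells of a type and less RNA per cell cannot be told apart. All 10 Schwann cell markers analysed here were lower in acrylamide cord, with a median log2 difference of -0.45, and 5 had an unadjusted p under 0.05 in limma: Pmp2, Prx, Egr2, Scn7a and Drp2. Over all probe sets tested in the cord, 48.6% were lower, and 1.85% were lower at that p. Pmp2, a lipid carrier of peripheral myelin, had 4646 and 5213 on saline and 2674 and 2645 on acrylamide arrays (log2 difference -0.88 ± 0.16). The summed Schwann cell signal was 66211 and 69563 in saline and 58332 and 57756 in acrylamide cord. Those of the perineurium, the sheath of nerve bundles, were 7796 and 9400 against 7638 and 6220, with 3 of 4 lower. Neither sum overlapped between the groups. No Schwann cell marker was at or near 0 in the cord, where the lowest was Fxyd3 at 237 to 306.

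Of 16 marker lists, 5 had lower sums in acrylamide cord without overlap, 4 had higher sums without overlap, and 7 overlapped. In the cerebellum 1 sum was lower and 5 were higher without overlap, and in the nerve 2 and 1. Of all single probe sets tested in the cord, 33.6% did not overlap in either direction. Beside Schwann cells and perineurium, the lower sums in the cord were those of cartilage, bone and fat cells. Cartilage sums were 3001 and 3727 on saline and 2094 and 1902 on acrylamide arrays, and most of that signal was Cnmd, at 2500, 3186, 1573 and 1384, while Acan was at 227, 240, 219 and 239. Bone sums were 7731 and 8876 against 6426 and 7166, most of it Spp1, which macrophages are also known to express, at 7050, 7976, 6074 and 7059. In the same list Bglap, the osteocalcin gene, was at 511, 561, 121 and 2.83, and Ibsp was under the filter. Fat cell sums were 899 and 792 against 682 and 505, most of it Lpl, at 563, 557, 429 and 282, while Adipoq was at 12.6 to 23.5.

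The sums of fibroblasts and of vessel cells overlapped between the groups. Of 11 fibroblast and meningeal markers 8 were higher in acrylamide cord, with a median log2 difference of 0.15 and sums of 34695 and 34152 against 34982 and 31647. The 3 lower markers of that list were the matrix genes Dcn (-0.33 ± 0.15) and Lum (-0.49 ± 0.20), and Pdgfra, which was near 0 (-0.07 ± 0.15). Endothelial sums were 11427 and 10882 against 10913 and 11375, with 6 of 11 lower, and pericyte and smooth muscle sums 6323 and 5511 against 5363 and 5519, with 5 of 11 lower. Microglia and macrophage markers were higher for 9 of 11, with sums of 5942 and 6260 against 8553 and 8171. The other 3 lists with higher sums were those of astrocytes, cerebellar neurons and choroid plexus. The part of Schwann cells, perineurium, cartilage, bone or fat cells in the lower chain gene signal was not tested.

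The cord difference was set beside each gene's level in nerve relative to cerebellum in saline rats, 2 measures that share no array. All 30 chain genes called higher in nerve than cerebellum were lower in acrylamide cord, with a median of -0.36, and 12 of them had an unadjusted p under 0.05. Of the 8 others 6 were lower, with a median of -0.04 and none at that p. Of 3057 other probe sets called higher in nerve, 59.4% were lower, 5.20% at that p, and their median was -0.04. The other probe sets were not limited to 1 per gene. In this comparison they include the 10 further probe sets of the chain genes tested in the cord. Steps of the nerve difference brought the medians and the shares lower closer: at a log2 difference of 4 or more, 18 of 18 chain genes and 91.3% of 208 other probe sets were lower, with medians of -0.44 and -0.36. In that step 10 of 18 chain genes (55.6%) and 26.4% of the others had an unadjusted p under 0.05, so these shares stayed apart. The 208 others include further probe sets of Col1a1, Col1a2, Col4a1 and Col15a1, each lower at that p. In the step from 3 to 4 the medians were -0.29 for 7 chain genes and -0.13 for 320 others. Across the 38 genes, which share arrays and are not independent, Pearson's r was -0.72 and Spearman's rho -0.83, and across 18929 other probe sets -0.17 and -0.11.

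**Figure D5:**
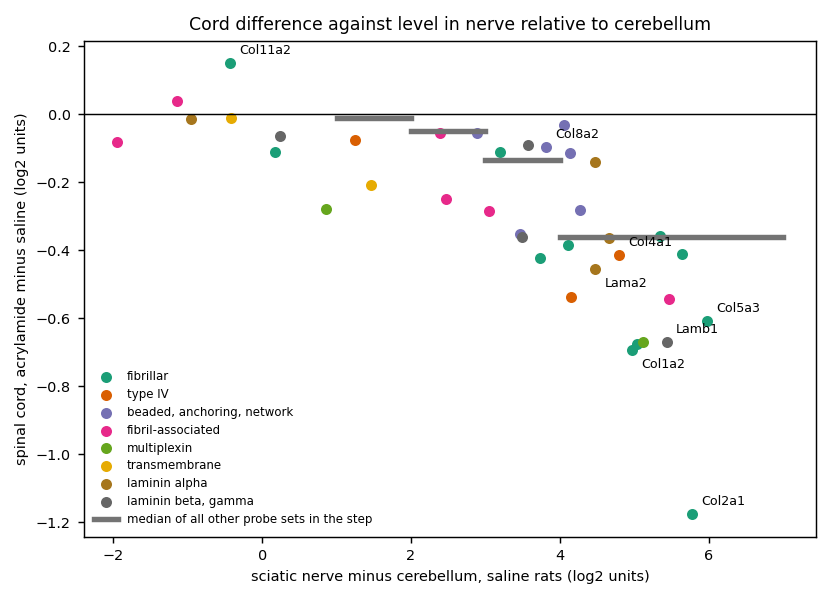
Acrylamide minus saline in the cord (vertical axis, log2 units) against nerve minus cerebellum in saline rats (horizontal axis, log2 units) for the 38 chain genes tested in the cord, coloured by class; grey bars are the medians of all other probe sets in steps of the horizontal axis, the last step being 4 or more. Chain genes on the right lie lowest, and the grey bars fall from -0.01 to -0.36. The other probe sets include further probe sets of the chain genes.

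The cord signal of the 33 chain genes called higher in nerve than cord was also given as a share of their saline nerve mean. The median share was 19.4% and 21.9% on the saline and 16.1% and 12.9% on the acrylamide cord arrays. Both acrylamide arrays thus lay below both saline arrays in this median.

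In the nerve itself, 20 of 38 genes were higher and 18 lower, and groups did not overlap for 7 (13.3% of all probe sets higher, 13% lower and 26.3% in either direction). Col12a1, a fibril-associated chain of tissue under tension, had 1213 and 1533 on saline and 1689 and 1927 on acrylamide arrays (log2 difference 0.40 ± 0.15, limma adjusted p = 0.946). Col8a1, a network chain of vessels, had 1306 and 949 against 1285 and 2027 (0.53 ± 0.23, limma adjusted p = 0.970), so its groups overlapped. Without both replicate 1 arrays, those with the cerebellar markers, Col8a1 had a difference of 1.08 with 1 array a group (limma adjusted p = 0.0383), the lone arrays being assumed to vary like the other groups. Its adjusted p lay between 0.259 and 1 under all other alternatives. Col2a1 had 3219 and 5078 against 3146 and 2495 (-0.53 ± 0.29), Col1a1 23775 and 22547 against 19540 and 22198 (-0.15 ± 0.21), and Col4a2 5455 and 5834 against 5046 and 4812. Their groups did not overlap, though Col1a1 and Col4a2 differed by less than their standard errors. Lamb2 (5476 and 5353 against 5558 and 6060), Col16a1 (2428 and 2514 against 2685 and 2716) and Col6a5 (284 and 200.5 against 291 and 294) were higher without overlap. Among 16 further probe sets of these genes tested in the nerve, 13 had the same sign as the one used. The exceptions were of Col2a1 (0.04 ± 0.26), Col5a2 and Col6a3. A second probe set of Col11a1 had 375 and 364 against 601 and 540 (0.61 ± 0.18, unadjusted p = 0.00824 in limma), beside 0.22 ± 0.21 for the one used. Against the saline mean the median was -0.08 on acrylamide 1 and 0.13 on acrylamide 2, so the sign of the nerve median differed between the arrays.

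In the cerebellum, groups did not overlap for 10 of 29 genes, 6 higher and 4 lower (17.1%, 16.6% and, in either direction, 33.7% of all probe sets). Lama2 had 231 and 222 on saline and 265 and 278 on acrylamide arrays (log2 difference 0.25 ± 0.11), Lamb2 403 and 479 against 506 and 510, and Col3a1 708 and 535 against 752 and 766. Col12a1 (234 and 232 against 269.6 and 294) and Col1a2 (838 and 566 against 892 and 876) were also higher. Col8a1 had 138 and 134 against 98.6 and 86.9, Col9a2 679 and 696 against 627 and 525, and Lamb1 148 and 153 against 129 and 82.5, all lower. None of these passed the unadjusted limit. Among 6 further probe sets tested in the cerebellum, 4 had the same sign as the one used, and the exceptions were those of Col5a2 and Lamc1.

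The differences between tissues were tested directly for the 27 genes above the filter in all 3. An F test of whether the acrylamide difference varied between tissues called 0 genes after adjustment and 7 at an unadjusted p under 0.05 in limma, against 0% and 2.33% of all probe sets. These were Lama2, Col1a1, Col1a2, Col12a1, Col8a1, Lamc1 and Col15a1. For Lama2 the cord difference lay 0.70 ± 0.16 below that of the cerebellum and for Col1a1 1.03 ± 0.30 below (as log2 units). For Col12a1 the nerve difference lay 0.65 ± 0.21 above that of the cord. Averaged over the 3 tissues, limma called 0 genes after adjustment (0.0127% of all), and 3 were lower at an unadjusted p under 0.05 (2.85% of all): Lamb1 (-0.39), Lamc1 (-0.14) and Col4a1 (-0.17).

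The genes that process, bind and break down these chains were taken from lists of pathway members, and none of them passed an adjusted p of 0.05 in the cord (0 called by limma in each list). Of all probe sets tested there, 48.6% were lower, 1.85% at an unadjusted p under 0.05, and their median was 0.00. Of 18 genes of collagen processing and crosslinking 12 were lower, with a median log2 difference of -0.06. Serpinh1, the collagen chaperone, had 1999 and 2148 on saline and 1533 and 1558 on acrylamide cord arrays (-0.42 ± 0.10), Bmp1, which cuts procollagen, -0.17 ± 0.11, and P4ha1, which hydroxylates proline, -0.18 ± 0.12. Of these, Serpinh1 alone had an unadjusted p under 0.05 in its list. Among 13 partners of the basement membrane 9 were lower (median -0.21), with 3 at that p: Fbln2, Tinagl1 and Hspg2. Hspg2, the gene of perlecan, had 652 and 754 against 538 and 447 (-0.50 ± 0.18), and Fbln2 1080 and 1174 against 863 and 746 (-0.48 ± 0.11).

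Among 17 receptors of collagens and laminins 10 were lower, with a median of -0.02. Itga6 and Itgb4, which pair as a laminin receptor of Schwann cells and perineurium, had -0.36 ± 0.15 and -0.37 ± 0.16. Sgcb, of the dystroglycan-associated sarcoglycans, was higher at 0.17 ± 0.09. Of 22 genes of other fibrous matrix 13 were lower (median -0.02), led by Lum and Dcn, which are also in the fibroblast list, while Fmod was at 0.34 ± 0.18. Of 12 proteases and inhibitors 11 were lower without any at an unadjusted p under 0.05 (median -0.12), with Mmp14 at -0.26 ± 0.13 and Timp2 at -0.15 ± 0.09. Among 17 regulators 11 were lower, again with none at that p (median -0.07), with Smad3 at -0.22 ± 0.13 and Pdgfa at -0.27 ± 0.17.

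Of the other fibrous matrix genes in the nerve, 25 of 27 had the higher mean in acrylamide rats, with a median of 0.17. Over all probe sets tested in the nerve, 49.8% had the lower mean, with a median of 0.00. At an unadjusted p under 0.05, 4 were higher and 0 lower in limma (2.73% and 2.37% of all probe sets). Their sums, 117901 and 81441 on saline and 97484 and 122310 on acrylamide arrays, overlapped, with saline 2 the lowest array. Fn1, the fibronectin gene, overlapped in the same way, with 10609 and 5281 against 7608 and 10946. Tnc, the tenascin gene, had 853 and 570.0 on saline and 1211 and 1564 on acrylamide nerve arrays (0.96 ± 0.27, limma adjusted p = 0.905). The others were Vcan, Bgn and Thbs2 at 0.34, 0.37 and 0.62, and none of these 4 genes overlapped between the groups. Of the regulators, Smad7, an inhibitor of TGF-beta signalling, had 195 and 140.2 against 310.2 and 258 (0.72 ± 0.17). Markers of muscle, fat and cerebellum varied between these arrays, and whether RNA of such tissue plays a part in the nerve values was not tested.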

How the data were processed

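RNA was extracted from pooled tissue and labelled cRNA was hybridised to 1-colour arrays, per the labels' protocols. Per the submitters' processing notes the authors used GCOS 1.1, and what they deposited is a linear intensity for each probe set on each array. The sources used here do not give the summary algorithm, the background correction or the scaling. The mean after trimming 2% at each end was 500.124 to 500.151 on every array, a sign of global scaling, which cannot show a change shared by all genes. The number of arrays limits the precision, with a median standard error in the cord of 0.16.

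Of 31099 probe sets 57 controls were left out. In the platform annotation 20826 probe sets had 1 symbol, 436 had several and 9780 had none; 20764 matched the RefSeq gene table by gene ID and no symbol changed. The genes and lists were chosen with earlier results of these data known, so no list was tested. A limma 3.58.1 model (R 4.3.3, eBayes with an intensity trend, 1 mean for each of 6 groups) was fitted to log2(signal + 16), which understates differences of dim genes. For acrylamide contrasts, probe sets needed a tissue mean above the 40th percentile (a signal of 110), 21347 in all. Two-sided p-values were adjusted over each contrast (Benjamini-Hochberg), and the pipeline was tested on simulated data. Arrays were grouped by the tissue and treatment in their labels.

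Values on every array are given for up to 8 genes per tissue with the smallest p and no overlap between groups, for the 6 largest called differences in each direction between tissues, for the gene with the highest mean in each class of chain, and for up to 3 genes with the smallest cord p in each pathway list. Alternatives were other normalizations (quantile, median centring), pseudocounts (1 and 64), filters, eBayes settings and probe set choices, a replicate block, separate fits by tissue, tissue contrasts on acrylamide arrays, and fits with each array or both replicate 1 nerve arrays left out.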

Additional observations from a re-analysis of the deposited data

How the results depend on the processing

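Over single genes, 6006 values were recomputed under the alternatives: 5934 kept their direction and side of the threshold, 46 lost and 23 gained the call, and 3 reversed. Part of this agreement was fixed in advance. Leaving out an array of another tissue, or changing the eBayes settings, cannot change the direction of an acrylamide difference. The lowest adjusted p of these differences within a tissue was 0.946 in limma, far from the threshold. The reversals were in dim genes between nerve and cerebellum with acrylamide in place of saline arrays: Col10a1 0.17, Col20a1 0.35 and Col4a6 -1.40, and the cause was not tested. The number of genes called between tissues stayed within 1.5 times under every alternative run, and no alternative called a chain gene in the cord or the cerebellum. In the nerve 1 gene, Col8a1, was called without both replicate 1 arrays.

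Counts at an unadjusted p under 0.05 were less stable. The share of all probe sets under each alternative is not given here, so the counts under the alternatives have no background beside them. With an array left out, or both replicate 1 nerve arrays, an affected group had 1 array. In the cord the count was 12, between 9 and 15 under the other settings, and between 3 and 15 with each array left out. In the cerebellum it was 0, but 2 without both replicate 1 nerve arrays and with a pseudocount of 1, 1 with the tissue fitted alone, without a filter and with quantile normalization, and 0 to 3 with each array left out. In the nerve it was 2, but 7 without both replicate 1 arrays, 4 without a filter, 1 with probe sets averaged and with quantile normalization, 0 with the tissue fitted alone and with median centring, and 0 to 4 with each array left out. Under the scaling alternatives the chain genes in the cord stayed mostly lower, 34 of 38 with median centring and 33 of 37 with quantile normalization.

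The correlation of the deviations of arrays with the same replicate number was 0.33 in the nerve, where both replicate 1 arrays carried the cerebellar neuron markers, but 0.09 in the cerebellum and -0.09 in the cord, so the numbers were not taken to pair the samples over all tissues. With the replicate block within tissues the unadjusted counts were 1 in the cerebellum, 13 in the cord and 1 in the nerve, and with a random block 0, 11 and 1; no adjusted call changed under either. With 2 pools a group, small differences cannot be separated from the spread between pools.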
